A study of Mus musculus with 6 samples.

Results

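The immediate early genes described here are Fos, Fosb, Jun, Junb, Egr1, Atf3, Ier2, Btg2, Myc and Zfp36. They were taken as every probe set that the platform's gene table maps to exactly 1 of these symbols, which gave 12 probe sets for 10 genes among 45037 probe sets and 18193 named genes. Jun and Btg2 had a pair of probe sets each, and the other genes had 1. Total RNA of whole gastrocnemius, the large calf muscle, came from male mice of the strain labelled C57B1/6 with a normal karyotype. There were 3 aged samples (replicates 51, 52 and 53) and 3 young samples (replicates 1, 2 and 3), each on its own Affymetrix mouse array. The sources used here give no ages, and no treatment is named. Nothing in the labels says whether the samples of one group are different animals. The p-values therefore cover the variation among these 6 samples, part of which may be technical.

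Immediate early genes are transcribed within minutes of a stimulus, without new protein synthesis, and their transcripts are short-lived. Most encode transcription factors that pass the signal on to later genes. Serum response factor with its ETS partners and the cAMP response element binding protein CREB sit on their promoters before the stimulus and are activated by kinase cascades. In skeletal muscle, contraction, injury, stretch and tissue handling are known to induce them.

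Promoter stretches are shown for 4 genes, each with a match to a site bound by CREB, serum response factor or EGR proteins. RefSeq promoters on GRCm38.p6 were at hand for 7 of the 10 genes (Fos, Fosb, Jun, Junb, Atf3, Btg2 and Zfp36), and the 250 bases before each start were searched on both strands. Each line gives 60 bases of the gene's own strand, 5′ to 3′, with the element in capitals: the core of a cAMP response element in Fos, a full cAMP response element in Btg2, a CArG box (the site of serum response factor) in Zfp36 and an EGR site in Fosb.
Fos, chr12:85473796-85473855, plus strand: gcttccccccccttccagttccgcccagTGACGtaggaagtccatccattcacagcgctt
Btg2, chr1:134079288-134079347, minus strand: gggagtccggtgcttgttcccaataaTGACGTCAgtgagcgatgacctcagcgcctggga
Zfp36, chr7:28379252-28379311, minus strand: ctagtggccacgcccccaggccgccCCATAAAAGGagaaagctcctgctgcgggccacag
Fosb, chr7:19310062-19310121, minus strand: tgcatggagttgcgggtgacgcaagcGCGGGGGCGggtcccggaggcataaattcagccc
The core TGACG, which is also contained in the full element, was found in 5 of the 7 promoters (Fos, Fosb, Junb, Atf3 and Btg2) and in 17.8% of 32851 promoters of the same length. The Fosb stretch above also holds this core, left in lower case. The full element TGACGTCA was found in 1 (Btg2) and in 1.55% of all promoters. A CArG box was found in 1 (Zfp36) and in 1.47% of all promoters, and GCGGGGGCG in 2 (Fosb and Zfp36) and in 2.57%. The AP-1 site TGACTCA was found in 0 of the 7 and in 4.46% of all promoters. These are matches of letters and not measured binding. Sites farther upstream than 250 bases were not searched, so a gene without a match here may still have one.

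None of the 10 genes differed between aged and young muscle by the test over all probe sets. Signals are MAS5 intensities in arbitrary units. A change is the aged mean minus the young mean of log2 signal, with limma's standard error after the ± sign (n = 3 per group). Probe sets whose mean log2 signal lay below the median of all probe sets, 9.08, were left out of the main test as dim. Of the 10 genes 6 passed that filter (Fos, Jun, Egr1, Atf3, Btg2 and Myc, with 8 probe sets), and Fosb, Junb, Ier2 and Zfp36 did not. In limma, 0 of the 6 genes passed an adjusted p of 0.05, while 1.05% of all 22519 tested probe sets did. Of their 8 probe sets 1 (Btg2) had an unadjusted p under 0.05, against 10% of all tested probe sets. Without the filter 0 of the 12 probe sets passed, against 0.588% of all probe sets, and 1 had an unadjusted p under 0.05, against 7.84% of all. The smallest adjusted p of the tested members was 0.321. A linear model without moderation called 0 of all 22519 tested probe sets and so gives no information on the members. The median change over all 10 genes was -0.12, and over all probe sets it was 0.076. Aged and young samples were fully apart on 1 of the 12 probe sets and on 13.2% of all probe sets. Among the 8 tested probe sets it was also 1, against 16.2% of all tested probe sets. In whole muscle, fewer cells of a type and less RNA per cell cannot be told apart.

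The arrays had all been scaled to the same trimmed mean, and their median signals lay between 637 and 833. All 10 skeletal muscle markers were above the filter and none had a signal of 0. Their summed signal, in units of 1000, was 2448 to 2914 in aged muscle and 3275 to 4152 in young muscle, and 0 of the 10 passed the test. All 10 had a negative change (median -0.61), and 7 had an unadjusted p under 0.05. Aged replicate 51 and all young samples were washed on fluidics station 1, and aged replicates 52 and 53 on station 2 under another protocol name. The log2 ratio of 3 prime to 5 prime control signal, a measure of RNA integrity, was 2.11, 2.00 and 2.86 in aged replicates 51, 52 and 53, and 1.71 to 1.77 in young muscle. Replicate spread depended on brightness: the median within-group SD of log2 signal was 1.12 in the dimmest and 0.32 in the brightest of 5 equal groups of tested probe sets.

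**Figure D1:**
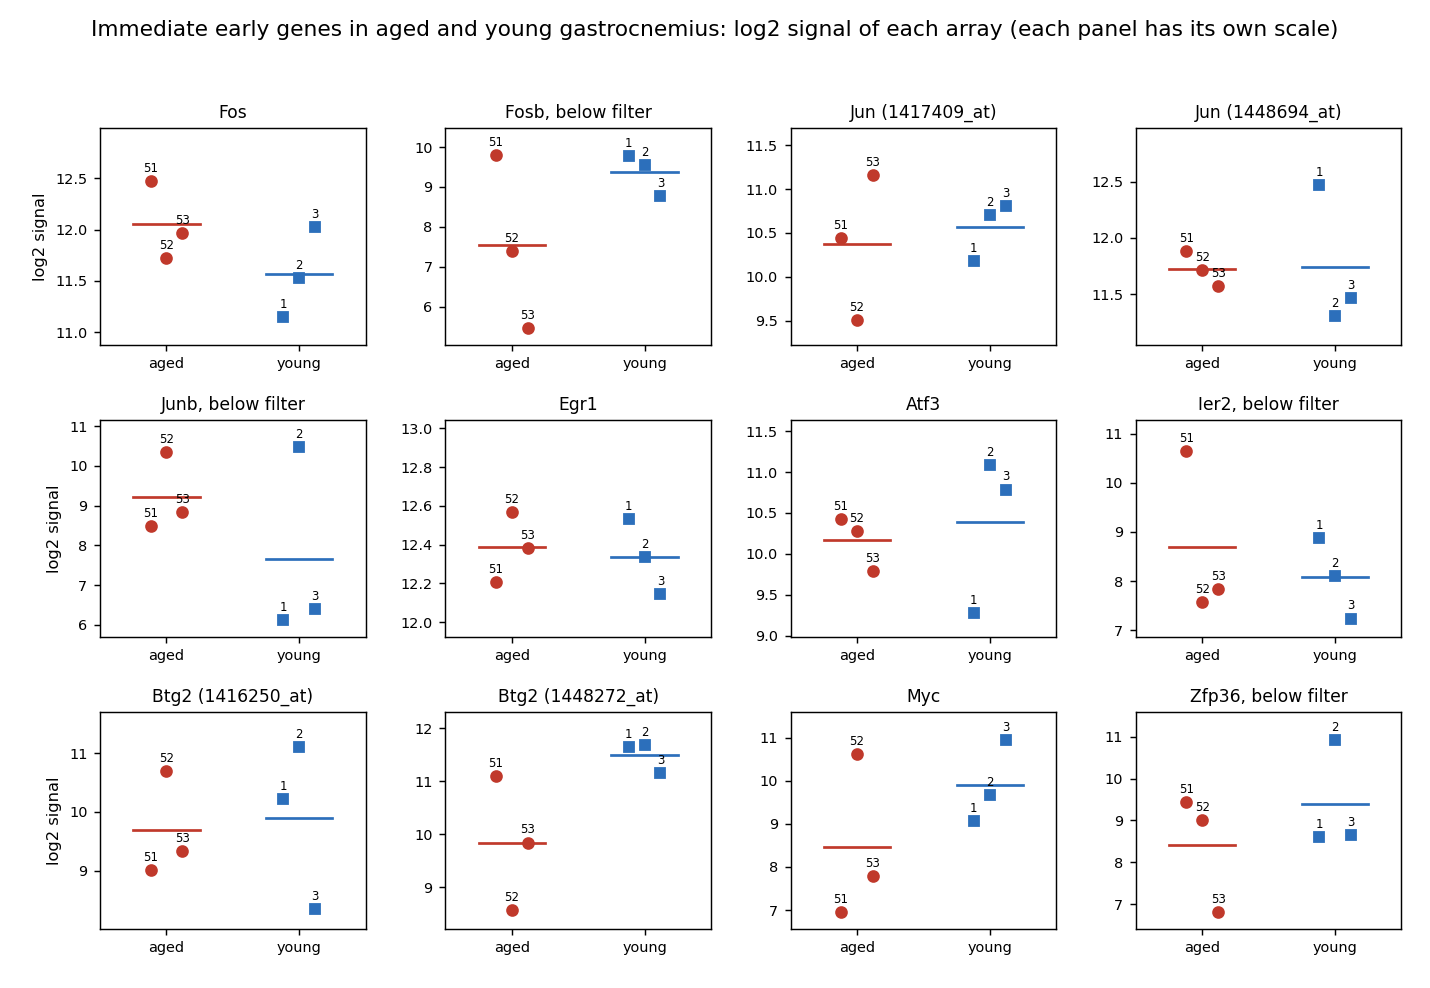
Log2 signal (vertical axis, its own scale in each panel) of the 12 probe sets on each array, with aged samples as circles and young samples as squares, numbered by replicate; bars are group means. Aged and young samples overlap in every panel except that of Btg2 probe set 1448272_at.

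The AP-1 proteins are dimers of Fos and Jun family members that bind one class of DNA site. Fos, whose protein needs a Jun partner to bind DNA, had signals of 5675, 3389 and 4006 in aged muscle (replicates 51, 52 and 53) and 2262, 2945 and 4178 in young muscle (replicates 1, 2 and 3). The sample with the most Fos was aged and the sample with the least was young, but young replicate 3 lay above aged replicates 52 and 53. The log2 means were 12.06 ± 0.38 in aged and 11.57 ± 0.44 in young muscle (SD, n = 3 each). The change of 0.49 ± 0.34 had a 95% interval from 0.84-fold to 2.35-fold and did not pass (limma adjusted p = 0.663).

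Fosb, a relative of Fos that occurs as a full-length and a truncated protein, was a dim probe set with signals of 891, 170.0 and 44.3 in aged muscle and 876, 748 and 436 in young muscle. Aged replicate 51 lay just above the highest young sample, and the other two aged samples lay below all of them. The spread within aged muscle was 20.1-fold from lowest to highest, against 2.01-fold in young muscle. In the fit without the filter the change was -1.80 ± 1.22, with an interval from -4.34 to 0.73 (limma adjusted p = 0.77).

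Jun, the main partner of Fos, had signals of 3771, 3364 and 3043 in aged muscle on its brighter probe set, 1448694_at, and 5661, 2533 and 2819 in young muscle. The aged samples were within 1.24-fold of each other and lay inside the young range, which young replicate 1 topped. The change was -0.022 ± 0.36, with an interval from 0.574-fold to 1.69-fold (limma adjusted p = 0.989). The other Jun probe set, 1417409_at, read 1392, 728 and 2288 in aged muscle and 1162, 1675 and 1789 in young muscle. Here the aged samples spanned more than the young ones, and aged replicate 53 was highest instead of lowest of its group. Its change was -0.20 ± 0.52 (limma adjusted p = 0.919). So the probe sets of Jun ranked the samples of each group in different orders, while neither separated the groups.

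Junb, a Jun relative that often opposes the growth-promoting action of Jun, was dim. Its signals were 359.7, 1301 and 461 in aged muscle and 69.6, 1427 and 84.3 in young muscle. Young replicates 1 and 3 were far below all aged samples, and young replicate 2 was above all of them. The young samples thus spanned 20.5-fold. The change of 1.56 ± 1.27 in the fit without the filter had an interval from -1.09 to 4.21 (limma adjusted p = 0.821).

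Atf3, a stress-induced factor of the ATF family that can pair with Jun proteins, had signals of 1380.3, 1246 and 882 in aged muscle and 620.4, 2182 and 1767 in young muscle. All aged samples lay between the lowest and the next lowest young sample. The log2 means were 10.17 ± 0.34 in aged and 10.39 ± 0.97 in young muscle (SD, n = 3 each), and the change was -0.22 ± 0.57 (limma adjusted p = 0.918).

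Egr1, a zinc finger factor that binds GC-rich sites, was the steadiest of the 10 genes. Its signals were 4722, 6080.3 and 5332 in aged muscle and 5927, 5173 and 4532 in young muscle, a range of 1.34-fold over all samples. The within-group SD of 0.19 on the log2 scale was at percentile 2.09 of all probe sets, many of them dimmer. Egr1 was in the brightest of 5 equal groups of tested probe sets, where the median SD was 0.32. Its change of 0.047 ± 0.26 had an interval from 0.695-fold to 1.54-fold (limma adjusted p = 0.967), which leaves out a change of 2-fold in either direction.

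Myc, which with its partner Max drives genes of growth and ribosome production, had signals of 125, 1579 and 221 in aged muscle and 537, 819 and 1964 in young muscle. Aged replicates 51 and 53 were below all young samples, and aged replicate 52 was above young replicates 1 and 2. The aged samples spanned 12.6-fold. The change was -1.44 ± 1.09, with an interval from -3.80 to 0.93 (limma adjusted p = 0.691).

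Ier2, a small nuclear protein induced by growth factors, was dim, with signals of 1605, 189.8 and 228 in aged muscle and 469, 276 and 151 in young muscle. Aged replicate 51 stood well above every other sample, and the remaining samples of both groups mixed. The change was 0.61 ± 1.20 in the fit without the filter (limma adjusted p = 0.943), and -0.37 without aged replicate 51.

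A last pair of genes acts on growth and on RNA. Btg2, an antiproliferative protein that recruits deadenylases to mRNA, was the only gene of the 10 with a probe set whose groups did not overlap. Probe set 1448272_at read 2203, 382 and 921 in aged muscle and 3212, 3312 and 2279 in young muscle. All aged samples were lower, as on 8.74% of all tested probe sets, but aged replicate 51 lay only just under young replicate 3. The log2 means were 9.84 ± 1.26 in aged and 11.50 ± 0.30 in young muscle (SD, n = 3 each). The change of -1.65 ± 0.58 had an unadjusted p of 0.0147 and did not pass (limma adjusted p = 0.321). The other Btg2 probe set, 1416250_at, read 515, 1670 and 647 in aged muscle and 1191, 2211 and 325 in young muscle. Its groups overlapped, with the lowest sample a young one, and its change was -0.21 ± 0.80 (limma adjusted p = 0.947). Aged replicate 52 was the highest aged sample on this probe set and the lowest on the other, so the probe sets did not rank the aged samples alike.

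Zfp36, the mRNA-destabilising protein tristetraprolin, was dim, with signals of 692, 513 and 113 in aged muscle and 389, 1951 and 403 in young muscle. Young replicate 2 was highest and aged replicate 53 lowest, so the groups overlapped, and aged replicates 51 and 52 lay above young replicates 1 and 3. The change was -0.98 ± 1.07 in the fit without the filter (limma adjusted p = 0.883).

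**Figure D2:**
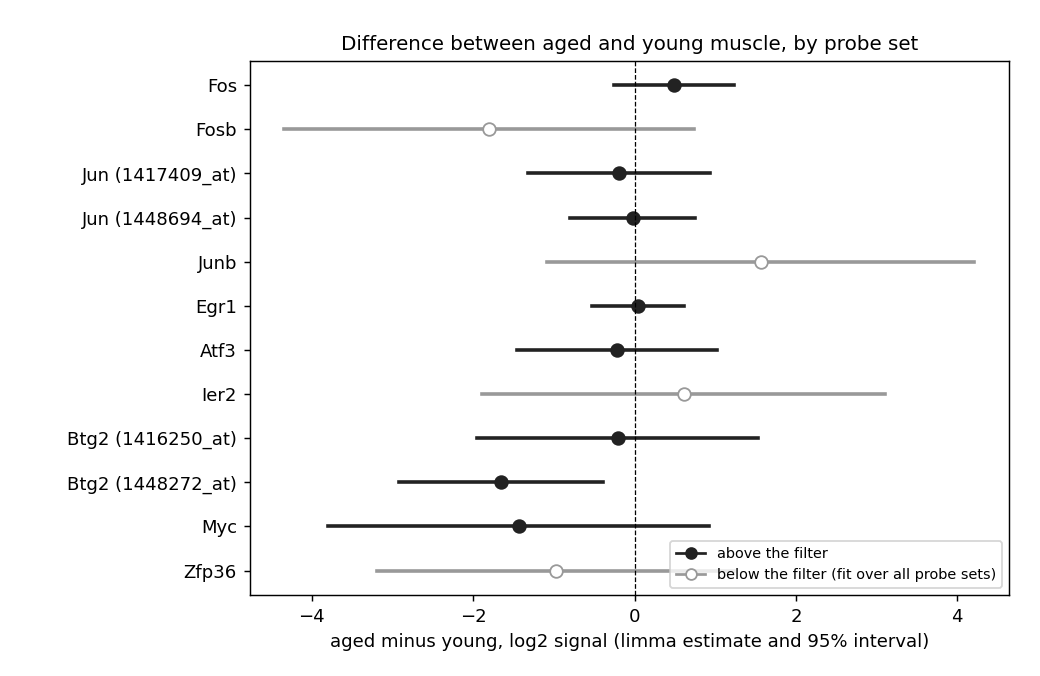
Difference between aged and young muscle on the log2 scale (horizontal axis) for each of the 12 probe sets, as limma estimates with 95% intervals; open points are probe sets below the filter. The interval of Btg2 probe set 1448272_at, -2.92 to -0.39, leaves out 0 before adjustment, and the other 11 include it.

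Precision differed widely among the genes. The widest fold bound among Egr1, Fos and the brighter Jun probe set was 2.35-fold, for Fos. For Junb the interval reached an 18.5-fold higher signal in aged muscle, and for Fosb a fold of 0.049, so large differences were not detectable there. The SE of the 4 dim genes was 1.07 to 1.27 on the log2 scale. Myc, with a mean log2 signal of 9.18, lay only just above the filter and had an SE of 1.09. Over all samples 7 of the 12 probe sets had a range above 4-fold, a share that was not taken over all probe sets. On the brightest probe set of each gene, the median within-group SD of log2 signal was 1.13. It was 1.01 over all probe sets and 0.62 over the tested ones, which leave out dim probe sets. The count of wide ranges therefore does not show that these genes were unusually variable.

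Station 1 holds samples of both groups, so the difference was also taken there alone, as aged replicate 51 minus the young samples. With 1 aged sample, the spread in this fit comes from the young samples alone, and the aged sample is assumed to vary like them. Fos was at 0.91, Fosb at 0.44, Jun at 0.14, Junb at 0.83 and Atf3 at 0.045. Egr1 was at -0.13, Ier2 at 2.58, Btg2 at -0.39, Myc at -2.93 and Zfp36 at 0.039. These are the probe sets with the higher mean signal where a gene has a pair, and 0 of them passed (limma adjusted p 0.327 to 0.993). Fosb, Jun, Egr1, Atf3 and Zfp36 thus had the opposite sign to the comparison over all samples. A fit with the station as a covariate gives the same differences by construction.

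How far single arrays varied together was read from each array's deviation from the mean of its own group, on the brightest probe set of each gene. Aged replicate 53 lay below the aged mean for 9 of the 10 genes, but Egr1 at -0.0046 was as level with the mean as Btg2 at 0.0037. The median deviation was -0.38 over the 10 genes and -0.12 over the 6 tested ones. Over all probe sets that array was above its group mean on 46.6%, with a median deviation of -0.068. Over the tested probe sets it was above on 52.7%, with a median deviation of 0.038. This array also had the highest ratio of 3 prime to 5 prime control signal, and it was washed on station 2. The part of either in these deviations was not tested. Aged replicate 51 lay above the aged mean for 7 of the 10, against 54.4% of all probe sets, with the exceptions Junb, Egr1 and Myc. Aged replicate 52 was above for 5, against 53.0% of all probe sets.

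In young muscle, replicate 2 was above the group mean for 6 of the 10 genes, replicate 1 for 5 and replicate 3 for 3. In the same order, these arrays were above it on 52.3%, 49.4% and 52.8% of all probe sets. Young replicate 2 gave the highest signal of all 6 arrays for 4 of the 10 genes (Junb, Atf3, Btg2 and Zfp36), against 16.4% of all probe sets. Its greatest deviations were in Junb at 2.81 and Zfp36 at 1.53. Fos, Jun and Myc were below the mean on this array, and Egr1 was level with it at -0.0017. Fos and Fosb lay on the same side of the mean on every aged array and on opposite sides on every young one. Jun and Junb lay on opposite sides on aged replicates 51 and 52 and on young replicates 1 and 2. Taking all pairs of the 10 genes, 53.7% lay on the same side of the group mean on an array, averaged over the 6 arrays, against 50.2% of all pairs of probe sets. For the 6 genes above the filter the share was 46.7%.

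**Figure D3:**
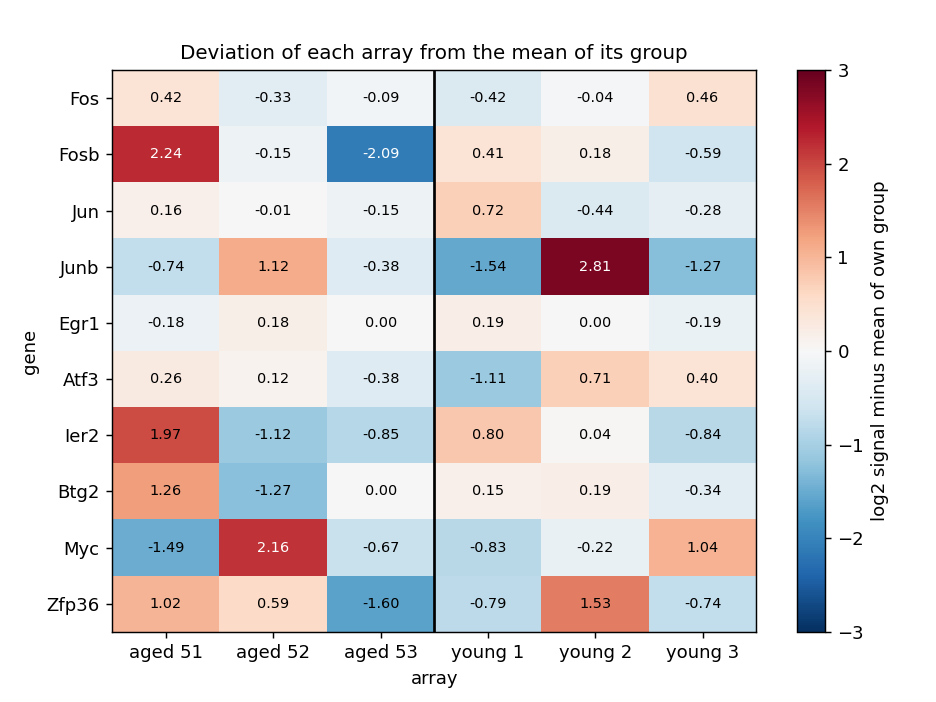
Log2 signal minus the mean of the sample's own group, for the brightest probe set of each gene (rows) on each array (columns, aged then young). Aged replicate 53 is below 0 for 9 of 10 genes, with Egr1 and Btg2 close to 0, and the other columns mix positive and negative values.

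The level of each array over the 10 genes was summarised as the median of log2 signal minus the gene's mean over all samples. It was 0.29, -0.0054 and -0.52 on aged replicates 51, 52 and 53, and 0.031, 0.66 and 0.0012 on young replicates 1, 2 and 3. The same measure over all probe sets lay between 0.0040 and 0.15. A median over so many features varies less than that over 10 genes, so these ranges cannot be compared directly. Over the 6 genes above the filter the level ran from -0.33 on aged replicate 53 to 0.35 on young replicate 3, with young replicate 2 at 0.24. The aged and young ranges over the 10 genes overlapped. Aged replicate 51 was above young replicates 1 and 3. With median centring it was at 0.091 and young replicate 1 at 0.22, so its order with young replicate 1 turned. Young replicate 3, at 0.0023, stayed below aged replicate 51. With the probe sets of a gene averaged, aged replicate 51 was at 0.11.

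Other genes of the same class were taken from a list of 40 immediate early genes besides these, of which 34 were tested. There Pim1 rose, Ccn2 fell and 32 did not pass, against 0.311% higher and 0.742% lower among all tested probe sets, and the median change was -0.14 (0.0079 over all tested probe sets). Of the 34 genes 11 had an unadjusted p under 0.05, beside 10% of all tested probe sets. The list was chosen with earlier results of these data known, and each gene stands for its brightest probe set. These shares therefore cannot be compared directly. Most of the 11 genes were lower in aged muscle. Ccn2, connective tissue growth factor, had signals of 2657, 716 and 3560.1 in aged muscle and 19702, 20549 and 21369 in young muscle. It was 10.9-fold higher in young muscle (-3.44 ± 0.47, limma adjusted p = 0.00277). The change was -2.74 without aged replicate 52 and -4.55 with the RNA quality measure as a covariate, and passed in both. Fibroblast markers were lower too: of 10 tested 5 fell (Col1a1, Col1a2, Col3a1, Dpt and Postn), with a median of -1.53 over the list. Their summed signal in units of 1000 was 116 to 123 in aged muscle and 781 to 1019 in young muscle, with none at 0. Most of the young sum came from Col1a1, Col1a2 and Col3a1. All 10 had a negative change, from -5.71 for Col1a1 to -0.23 for Pdgfra. Dcn was at -0.73, with its other probe set at 1.60. The part of the fibroblast markers in the fall of Ccn2 was not tested. Pim1, a kinase that supports cell survival, had signals of 15791, 21310 and 14868 in aged muscle and 4389, 4213 and 6404 in young muscle, and was 3.48-fold higher in aged muscle (1.80 ± 0.26, limma adjusted p = 0.00388). Macrophage markers summed to 66.3 to 103 units of 1000 in aged muscle and 61.4 to 82.1 in young muscle, and 0 of 6 tested passed or had an unadjusted p under 0.05 (median 0.22). Endothelial markers summed to 15.3 to 20.2 in aged muscle and 20.3 to 23.2 in young muscle, and 0 of 8 tested passed or had an unadjusted p under 0.05 (median -0.17). Satellite cell markers summed to 15.3 to 17.6 in aged muscle and 19.0 to 23.8 in young muscle, and 1 of 10 fell (Cd34, with a list median of -0.64). Of the 10, 3 had an unadjusted p under 0.05. The change was negative for 7 and positive for 3: Itga7 (1.62), Cdh15 (1.10) and Myod1 (0.25). The part of these cell types in the rise of Pim1 was not tested. With the station as a covariate neither passed, with Ccn2 at -2.95 (limma adjusted p = 0.0732) and Pim1 at 1.69 (limma adjusted p = 0.0571). Within station 1, where 1 aged sample stands against 3 young ones and the spread among aged samples is absent, the changes were the same by construction. There Ccn2 had a limma adjusted p = 0.000988 and Pim1 a limma adjusted p = 0.0527.

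The other named genes of that list did not pass. Jund, a Jun relative that is expressed without a stimulus in many tissues, had signals of 12886, 10367 and 10826 in aged muscle and 22176, 21021 and 21659 in young muscle. The groups were apart and the change was -0.93 ± 0.21 (limma adjusted p = 0.06). The kinase Sgk1 was at -0.79 ± 0.42, the survival protein Mcl1 at -0.53 ± 0.24 and the antiproliferative protein Tob1 at -0.062 ± 0.22. Other probe sets of Mcl1 ran from -0.69 to 0.49.

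None of the genes that damp these signals passed. Of 14 phosphatase and feedback genes 8 were tested. On the brightest probe set of each gene all 8 had a negative change, with a median of -0.37. Among all tested probe sets 49.5% had a negative change. This list was also chosen with earlier results of these data known, so these shares cannot be compared directly. In limma 0 passed and 2 of the 8 had an unadjusted p under 0.05 (10% of all tested probe sets). These were Errfi1, an inhibitor of the EGF receptor (-1.07 ± 0.27, limma adjusted p = 0.107), and Dusp1, which inactivates stress-activated MAP kinases (-0.72 ± 0.30, limma adjusted p = 0.451). Dusp1 read 9617, 8257 and 4824 in aged muscle and 9285, 11665 and 15839 in young muscle, with aged replicate 53 lowest. The NF-kappaB inhibitor Nfkbia was at -0.38 ± 0.21 and Spry2, an inhibitor of receptor tyrosine kinase signalling, at -0.35 ± 0.24. Their other probe sets disagreed in sign, from -0.64 to 0.36 for Nfkbia and at 0.75 for Spry2.

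Upstream, 22 of 29 regulators were tested, 0 passed in limma and 0 had an unadjusted p under 0.05, with a median of 0.014. The ETS factor Elk4 was at -0.28 ± 0.26, the SRF coactivator Mrtfb at -0.15 ± 0.23, Atf4 at -0.15 ± 0.27 and the kinase Rps6ka3 at -0.28 ± 0.24. Other probe sets of these genes lay between -1.11 and 0.53 for Elk4, at -1.65 and -0.29 for Atf4 and at -0.82 for Rps6ka3. Among 27 paralogues and dimer partners 23 were tested and 0 passed, with 5 of the 23 at an unadjusted p under 0.05 (10% of all tested probe sets) and a median of 0.026. Beside Jund and Tob1, the list's brightest genes were Maf (0.84 ± 0.26, limma adjusted p = 0.233, other probe sets from 0.39 to 1.15) and the Zfp36 relative Zfp36l1 (0.073 ± 0.24, with its other probe set at 1.06). Of 14 tested heat shock genes 0 passed and 2 had an unadjusted p under 0.05 (10% of all tested probe sets), with a median of 0.018. Hspa8 was at -0.18 ± 0.19, Hspb8 at 0.25 ± 0.29, Cryab at 0.34 ± 0.23 and Hsph1 at 0.63 ± 0.23. Their other probe sets ran from -0.67 to -0.099 for Hspa8 and from 0.68 to 0.72 for Hspb8, and were at 0.026 for Cryab and 1.73 for Hsph1.

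**Figure D4:**
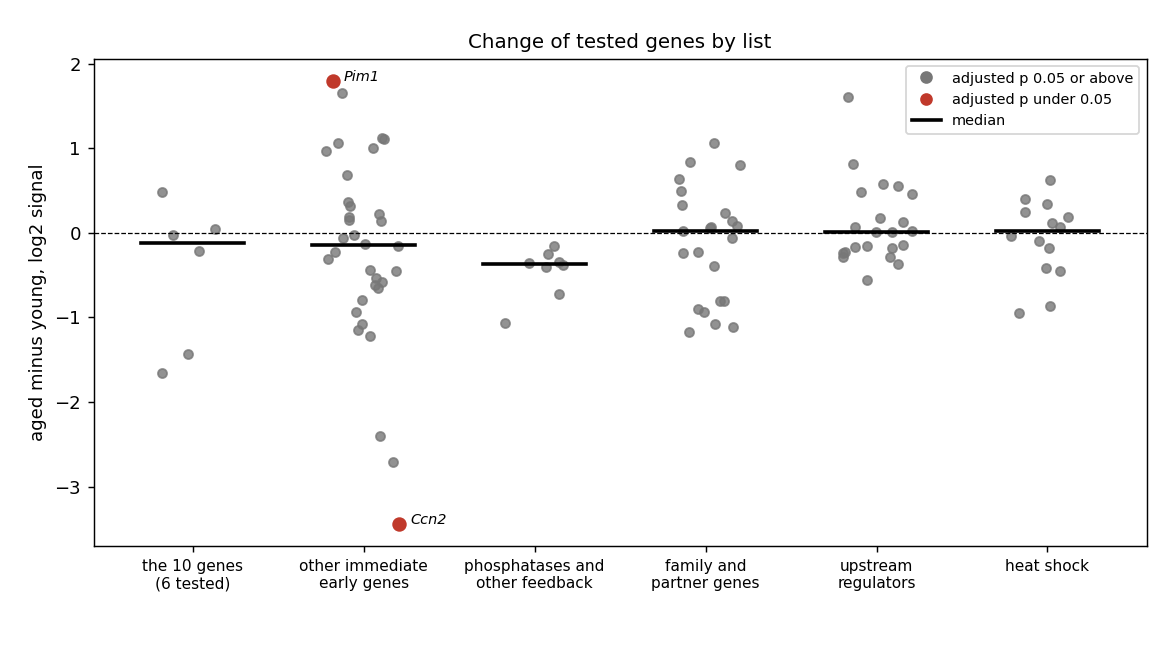
Change between aged and young muscle on the log2 scale (vertical axis) of each tested gene, by list (horizontal axis), with list medians as bars and genes past the test in red. Pim1 at 1.80 and Ccn2 at -3.44 are the genes past the test in these lists.

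Genes with a profile over the arrays most like the mean profile of the tested members were found by the root mean square difference between centred log2 profiles. The mean profile of the 6 tested members ranged from -0.45 on aged replicate 53 to 0.41 on young replicate 3. Among 11757 other tested genes, the 8 nearest were Flrt2, Acvr1, Rps24, Nbn, Slco5a1, Pttg1ip, Erbb3 and Appbp2, with differences of 0.08 to 0.12, where the median over all genes was 0.62. The members themselves were farther from their own mean, from 0.37 for Egr1 to 1.25 for Myc. Btg2, at 1.00, and Myc were farther from it than the median over all genes. Nearness to the mean profile is therefore not likeness to each member.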

How the data were processed

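The deposited value table of the series holds a linear intensity for every probe set on every array, and the submitters' processing notes name MAS5 as the tool. No version or settings of it are stated there. The mean of each array after trimming 2% at each end was 1500.0, so the deposited signals had been scaled to that value. Each array's run settings file gave the fluidics station. Here intensities were taken to log2, 64 control probe sets and probe sets with a mean below 9.08 (a signal of 539.7) were left out, and the test of aged against young muscle was limma 3.58.1 under R 4.3.3 (lmFit, eBayes with trend, two-sided, Benjamini-Hochberg over 22519 probe sets, threshold 0.05). Dim members were read from the same fit over all 45037. A gene stands for its probe set with the highest mean signal. The number of arrays limits the precision. The 15 pairs of arrays differed by a median of 0.80 to 1.03 in absolute log2 signal and shared at most 1 identical value, so none was counted as a repeat of another.

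Members and lists were chosen with earlier results of these data known. The text names all 10 genes, of each pathway list the genes past the test and the 4 brightest, and the 8 nearest profiles. Pdgfra, Itga7 and Cdh15 were named after their values were seen. The platform table names 34945 probe sets with 1 symbol; 932 with several stayed unnamed. Marker lists cover macrophages, endothelium, fibroblasts, satellite cells and skeletal muscle. Steps were tested on simulated data. The alternatives tried were median centring, quantile normalization, dropping the filter or setting it at percentile 75, a pseudocount of 219, each array left out, station or RNA quality as covariate, station 1 alone, eBayes without trend or robust, array weights, no moderation, omission of probe sets that can cross-hybridise (_x_at and _s_at), and averaged probe sets. Figures used matplotlib 3.10.9.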

Additional observations from a re-analysis of the deposited data

How the results depend on the processing

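None of the 10 genes passed in any alternative that gave it a value, and the smallest adjusted p was 0.0698, for Btg2 without aged replicate 51. Fos, Jun, Egr1 and Btg2 had a value in all 20, and the other 6 genes in 19, as the stricter filter left them out. Fos, Junb, Btg2 and Myc kept their sign wherever they had a value. For Btg2 the averaged setting joins both probe sets (-0.93). With 1 array left out the median change over the 10 genes ran from -0.36 to 0.01. It was 0.091 with the station as a covariate or within station 1, 0.22 with the RNA quality covariate, and 0.012 over the members left by the stricter filter. Other genes turned sign. With the station as a covariate and within station 1 these were Fosb (0.44), Jun (0.14), Egr1 (-0.13), Atf3 (0.045), Zfp36 (0.039), Mrtfb (0.013) and Zfp36l1 (-0.063). With the RNA quality covariate they were Fosb (0.27), Jun (0.18), Atf3 (0.099), the dimmer Btg2 probe set (0.27), Zfp36 (0.62), Zfp36l1 (-0.19) and Cryab (-0.078). Quantile normalization turned Jun (0.023), Tob1 (0.065), Atf4 (0.00019) and Hspa8 (0.035), and median centring Egr1 (-0.069) and Zfp36l1 (-0.043). Array weights turned the dimmer Btg2 probe set (0.073), and averaging probe sets Spry2 (0.20). The cause was not tested. With 1 array left out the change ran from 0.28 to 0.72 for Fos, -2.92 to -0.76 for Fosb, 0.79 to 2.97 for Junb, -2.29 to -1.02 for Btg2, -2.52 to -0.69 for Myc, -1.49 to -0.18 for Zfp36, -0.24 to 0.34 for Jun, -0.59 to 0.24 for its dimmer probe set, -0.050 to 0.14 for Egr1, -0.77 to 0.13 for Atf3, -0.37 to 1.17 for Ier2, -0.98 to 0.40 for the dimmer Btg2 probe set, -0.16 to 0.041 for Tob1, -0.42 to 0.085 for Atf4 and -0.059 to 0.18 for Zfp36l1.

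Of all tested probe sets 237 passed, against 124 to 342 with 1 array left out (131, 124, 152 and 149 without young replicate 1, 2 or 3 or aged replicate 52), 365 within station 1, 138 with the RNA quality covariate, 145 with averaged probe sets, 21 without the trend and 0 with no moderation. Ccn2 and Pim1 lost their call in the last 2 of these (adjusted p 0.224 to 0.344). Jund passed in 4 alternatives: with the stricter filter (adjusted p = 0.0496), without aged replicate 51 (0.0456), with array weights (0.0351) and with averaged probe sets (0.0495). Errfi1 passed without aged replicate 53 (adjusted p = 0.0119) and Sgk1 under the station covariate (-1.97, adjusted p = 0.0358). Within station 1 both passed (0.0246 and 0.0369), but there the aged arm is replicate 51 alone, the lowest aged sample for both genes, and only young samples give the spread. No paired analysis was possible because the groups share no replicate numbers.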
